A study of Mus musculus with 5 samples.

Results

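Lymphocytes stay in a tissue or leave it through a small set of genes, and 9 of them were examined here in dermal group 2 innate lymphoid cells (dILC2s). The genes were S1pr1, Klf2, Cd69, Itgae, Prdm1, Zfp683, Rgs1, Rgs2 and Cd44, taken by symbol from the 47729 genes of the deposited count table. RNA was sequenced from cells sorted out of the skin of female C57BL/6 mice aged 8 to 13 weeks, without stimulation after the sort. There were 3 WT libraries (pools 5, 6 and 13) and 2 libraries labelled Rag1-/- (pools 2 and 7), whose mice lack the recombinase that T and B cells need to form. By the methods 10 mice went into each WT pool and 9 into each Rag1-/- pool, while the labels count 16 Rag1-/- mice in all. The gate of the sort is not given in the sources used here, and the study's flow cytometry took dILC2s as live CD45+ CD90hi ear skin cells without CD2 and CD3. The cell type label of the Rag1-/- libraries reads type 3 rather than type 2, so genotype and label cannot be told apart.

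S1PR1 is the receptor with which lymphocytes follow sphingosine 1-phosphate (S1P) out of tissues into lymph and blood, and KLF2 is the transcription factor that keeps S1pr1 switched on. CD69 binds S1PR1 and takes it off the cell surface, while the integrin CD103, whose alpha chain is encoded by Itgae, holds cells to E-cadherin on epithelium. Blimp-1 (Prdm1) and Hobit (Zfp683) are repressors that lower Klf2 and S1pr1 in resident T cells, RGS1 and RGS2 shorten signals from G-protein-coupled receptors, and CD44 binds hyaluronan in the matrix. ILC2s are known as largely resident cells in most tissues. Several of the genes are not restricted to lymphocytes, since endothelium uses S1pr1 and Klf2, and epidermal cells use Prdm1 and Cd44.

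Genes took 32939428 to 39477243 counts in the WT libraries, 8050562 in Rag1-/- pool 2 and 38922750 in Rag1-/- pool 7. A level of 3 counts, the smallest treated as seen, was 0.0760 to 0.0911 CPM (counts scaled to the total of the library) in WT, 0.373 CPM in Rag1-/- pool 2 and 0.0771 CPM in Rag1-/- pool 7. For the targeted gene, Rag1, WT libraries gave 4, 0 and 5 counts and those labelled Rag1-/- gave 5 and 48, so the labels could not be checked by a loss of its transcript. All 20 ILC2 marker genes had counts in every library, Thy1 and Rora being the most abundant. A list of 37 genes of leukocytes in general made up 0.125% to 0.295% of the counts in WT against 0.961% and 0.834% in Rag1-/- pools 2 and 7. Keratinocyte markers went the other way, with 25 genes led by Krt10 and Krt14 summing to 36383 to 51920 CPM in WT and to 8932 and 21095 CPM in Rag1-/- pools 2 and 7. The part of this difference in the results on single genes was not tested, and in bulk RNA fewer cells of a type and less RNA per cell cannot be told apart. Each gene is therefore also given per 1000 counts on the leukocyte list, a scale on which the median log2 fold change of all genes was -2.14 rather than 0.02.

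On the CPM scale the Rag1-/- libraries had more Itgae and Cd69 and less Prdm1 than WT. The 3 genes passed the edgeR quasi-likelihood test with an absolute log2 fold change above 1, 2 of them higher and 1 lower, of 8 that had enough counts to be tested. Among all 19011 genes tested 3.57% were called higher and 2.16% lower. In 6 of the genes every Rag1-/- library was above every WT library and in 1 every Rag1-/- library was below, against 21.9% and 24.0% of all genes tested. DESeq2 called 4 of the genes higher and 1 lower (4.02% and 4.20% of all genes), and so did edgeR without the filter on low counts (3.87% and 4.98%). The median log2 fold change over the 8 genes was 1.07, against 0.02 over all genes tested. With any WT pool or Rag1-/- pool 2 left out, edgeR called 0 genes of the whole table, while 1910 to 2843 genes in the higher and 1611 to 2357 in the lower direction had an unadjusted p under 0.05. With 3 libraries against 2, an exact permutation test has 10 splits. Its two-sided p, taken as 2 times the smaller tail, cannot go below 0.2. The p-values here rest instead on the count models of edgeR or DESeq2, which borrow part of their estimate of spread from other genes.

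**Figure D1:**
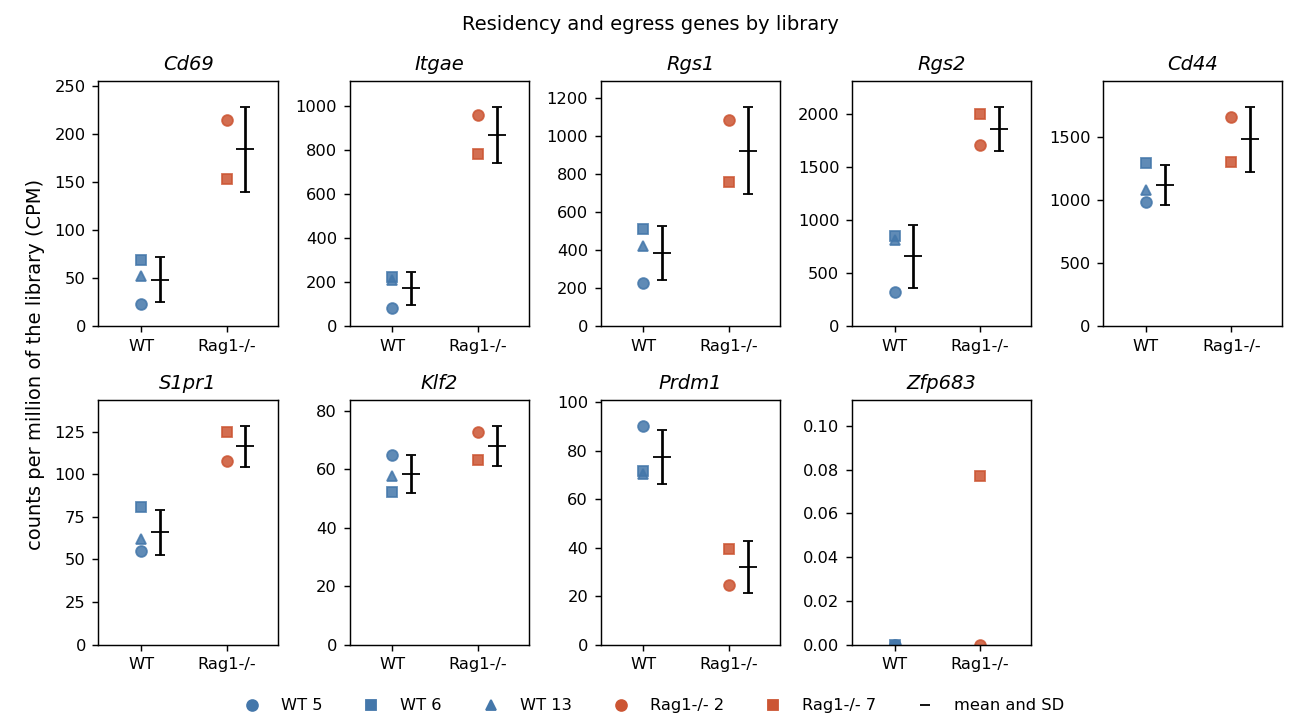
CPM of the 9 genes in each library, on a linear axis from 0 of its own for each gene, with points for single libraries and bars for the mean and SD of each genotype (none for Zfp683). Itgae and Cd69 sat higher in both Rag1-/- libraries (957 and 779.5 CPM, 215 and 153 CPM) than in any WT library, and Prdm1 sat lower (24.5 and 39.5 CPM).

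Itgae (ENSMUSG00000005947, GRCm38 chr11:73090583-73147446, plus strand) had 82.4, 221 and 208 CPM in WT pools 5, 6 and 13 and 957 and 779.5 CPM in Rag1-/- pools 2 and 7. Both Rag1-/- libraries were far above the highest WT library, and WT pool 5 stood below the other two. The mean rose from 171 ± 76.6 CPM (SD, n = 3) to 868 ± 126 CPM (SD, n = 2), a log2 fold change of 2.38 (SE 0.42, edgeR adjusted p = 0.0309). The call held without Rag1-/- pool 7 (adjusted p = 0.0336) and was lost without WT pool 5 (0.0543), WT pool 6 (0.0917), WT pool 13 (0.112) or Rag1-/- pool 2 (0.0743), with log2 fold changes between 2.04 and 2.62.

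Per 1000 leukocyte counts Itgae had 66.0, 75.0 and 71.2 counts in WT and 99.6 and 93.5 in Rag1-/- pools 2 and 7. WT pool 5 no longer stood apart on this scale, and the groups still did not overlap. Their means were 70.7 ± 4.54 (SD, n = 3) and 96.5 ± 4.31 (SD, n = 2). The edgeR log2 fold change with this scaling was 0.45 (95% interval -0.92 to 1.81, adjusted p = 0.550). In that fit the SE lay between 0.70 and 0.81 for all 8 tested genes, and was 0.70 for Itgae. As in the fit on the CPM scale, spread was borrowed in part from other genes, so the interval is not the spread of Itgae alone. The fit with leukocyte scaling called 16 of all 19011 genes higher. CD103 forms only with the beta 7 chain, and Itgb7 was called higher too, with 50.8, 140 and 124 CPM in WT and 461 and 478 CPM in Rag1-/- pools 2 and 7 (log2 fold change 2.19, SE 0.41, edgeR adjusted p = 0.0339). The ratio of Itgae to Itgb7 counts, chosen after the values were seen, was 1.62, 1.58 and 1.67 in WT and 2.07 and 1.63 in Rag1-/- pools 2 and 7, and the groups overlapped.

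Cd69 (ENSMUSG00000030156, chr6:129267325-129275436, minus strand) had 22.8, 69.0 and 52.4 CPM in WT and 215 and 153 CPM in Rag1-/- pools 2 and 7. The lowest Rag1-/- library was above the highest WT library, and WT pool 5 was again the lowest. The means were 48.1 ± 23.4 CPM (SD, n = 3) and 184 ± 44.0 CPM (SD, n = 2), and the log2 fold change was 1.96 (SE 0.43, edgeR adjusted p = 0.0457). This call was lost with each library left out, at adjusted p-values of 0.0627 (WT pool 5), 0.0918 (WT pool 6), 0.132 (WT pool 13), 0.115 (Rag1-/- pool 2) and 0.0533 (Rag1-/- pool 7), with log2 fold changes between 1.62 and 2.33. Per 1000 leukocyte counts the groups overlapped, with 18.3, 23.4 and 17.9 counts in WT, 22.4 and 18.3 in Rag1-/- pools 2 and 7, and the fitted log2 fold change at 0.04 (95% interval -1.33 to 1.40, edgeR adjusted p = 0.963).

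S1pr1 (ENSMUSG00000045092, chr3:115710433-115715072, minus strand) had 55.0, 80.7 and 61.7 CPM in WT and 108 and 125 CPM in Rag1-/- pools 2 and 7. The groups did not overlap, yet the gene did not pass the test. Its log2 fold change was 0.86 (95% interval 0.31 to 1.40, edgeR adjusted p = 0.0723), and with DESeq2 it was 0.82 with an adjusted p of 0.0287, under the fold threshold of 1. The direction turned on the leukocyte scale, where the median log2 fold change of all genes was -2.14. There WT held 44.0, 27.3 and 21.2 counts per 1000 and Rag1-/- pools 2 and 7 held 11.2 and 14.97. The log2 fold change of S1pr1 was -1.23 (95% interval -2.66 to 0.19, edgeR adjusted p = 0.111). Within each library the ratio of Cd69 to S1pr1 counts, which needs no scaling between libraries and was chosen after the values were seen, was 0.415, 0.855 and 0.849 in WT and 2.00 and 1.22 in Rag1-/- pools 2 and 7.

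Klf2 (ENSMUSG00000055148, chr8:72319033-72321656, plus strand) had 65.0, 52.1 and 57.7 CPM in WT and 72.8 and 63.0 CPM in Rag1-/- pools 2 and 7. The libraries of both genotypes overlapped, since WT pool 5 was above Rag1-/- pool 7. The log2 fold change was 0.25 (95% interval -0.19 to 0.69, edgeR adjusted p = 0.444), so a fall of Klf2 was not seen on the CPM scale. Per 1000 leukocyte counts it was lower, with 52.0, 17.6 and 19.8 counts in WT against 7.57 and 7.56 in Rag1-/- pools 2 and 7 and the fitted log2 fold change at -1.98 (95% interval -3.45 to -0.50, edgeR adjusted p = 0.0179), while the median of all genes on that scale was -2.14 and 68.6% of them were called lower.

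Promoter sequence of the build was at hand for Klf2, Rgs2, Prdm1 and Cd44 of the 9 genes, in the RefSeq table of GRCm38.p6. The 250 bases before the start are shown for Klf2, the transcription factor of the S1P axis, and for Rgs2, the gene with the highest level per length. Starts here are those of RefSeq, and both windows end inside the extent of the gene in the deposited table. Capitals mark matches on either strand to the KLF box CACCC, the SP box GGGCGG, the cAMP response element core CGTCA and the AP-1 box TGACTCA, none of which overlapped another.
Klf2 (chr8:72318812-72319061, plus strand): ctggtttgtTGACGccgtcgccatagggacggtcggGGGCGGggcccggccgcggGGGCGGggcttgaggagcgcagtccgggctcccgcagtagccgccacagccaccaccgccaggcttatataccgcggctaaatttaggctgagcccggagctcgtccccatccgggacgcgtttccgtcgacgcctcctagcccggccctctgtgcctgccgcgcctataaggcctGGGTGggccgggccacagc
Rgs2 (chr1:144004150-144004399, minus strand): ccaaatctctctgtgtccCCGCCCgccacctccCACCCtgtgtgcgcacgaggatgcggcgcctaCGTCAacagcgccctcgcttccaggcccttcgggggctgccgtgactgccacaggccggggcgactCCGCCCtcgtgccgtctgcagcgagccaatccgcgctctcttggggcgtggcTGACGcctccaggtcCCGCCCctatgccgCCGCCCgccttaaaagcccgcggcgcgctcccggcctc
The Klf2 window held 1 KLF box, which begins 19 bases before the RefSeq start and lies inside the deposited extent of the gene, 2 SP boxes and 1 element core. The Rgs2 window held 1 KLF box, 4 SP boxes and 2 element cores. Of all 32851 promoter windows of this length, 52% had a KLF box, 32.7% an SP box, 17.8% an element core and 4.46% an AP-1 box. The Prdm1 window, which lies wholly inside the deposited extent of that gene (chr10:44458749-44458998), held 1 element core and the Cd44 window no match. Such matches describe the letters and not binding.

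Prdm1 (ENSMUSG00000038151, chr10:44437177-44528501, minus strand) went down. WT held 90.3, 71.5 and 70.6 CPM and Rag1-/- pools 2 and 7 held 24.5 and 39.5 CPM. The Rag1-/- libraries were both below the lowest WT library, and Rag1-/- pool 2, which had the fewest keratinocyte counts, was the lowest. The mean fell from 77.5 ± 11.1 CPM (SD, n = 3) to 31.97 ± 10.6 CPM (SD, n = 2), with a log2 fold change of -1.23 (SE 0.28, edgeR adjusted p = 0.0481). The call held without Rag1-/- pool 7 (adjusted p = 0.0163) and was lost without Rag1-/- pool 2 (0.0817), WT pool 5 (0.125), WT pool 6 (0.122) or WT pool 13 (0.124). Its log2 fold change was -0.90 without Rag1-/- pool 2, under the fold threshold, -1.72 without Rag1-/- pool 7 and between -1.30 and -1.11 without a WT pool.

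Prdm1 was the only one of the 8 tested genes called lower on both scales. Per 1000 leukocyte counts it had 72.3, 24.2 and 24.2 counts in WT and 2.55 and 4.73 in Rag1-/- pools 2 and 7 (log2 fold change -3.46, 95% interval -5.05 to -1.87, edgeR adjusted p = 0.000387). Krt5, a keratin of basal keratinocytes, was among the 2 genes of the whole table whose profile over the 5 libraries was nearest to that of Prdm1, and its mean was 5393 CPM in WT and 2181 CPM in Rag1-/- libraries. The part of keratinocyte RNA in the Prdm1 values was not tested. Zfp683 (ENSMUSG00000049410, chr4:134053838-134058996, plus strand), the gene of the related repressor Hobit, had 0 counts in 4 libraries and 3 counts in Rag1-/- pool 7. The 3 counts are the smallest number treated as seen (0.0771 CPM in that library), whereas in the other libraries the gene was not detectable above 0.0760 to 0.0911 CPM in WT and 0.373 CPM in Rag1-/- pool 2, and it was not tested.

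Rgs2 (ENSMUSG00000026360, chr1:143999338-144004161, minus strand) had 317, 845 and 809.6 CPM in WT and 1709 and 2003 CPM in Rag1-/- pools 2 and 7. The groups did not overlap, and WT pool 5 was the lowest library. The log2 fold change was 1.53 (95% interval 0.54 to 2.52) and missed the threshold with edgeR (adjusted p = 0.0755), while DESeq2 (1.49, adjusted p = 0.00534) and edgeR on the unfiltered table (1.47, adjusted p = 0.00158) called it. Rgs1 (ENSMUSG00000026358, chr1:144242296-144249242, minus strand), which is known to hold back chemokine responses of lymphocytes, had 226, 508 and 418 CPM in WT and 1082 and 759 CPM in Rag1-/- pools 2 and 7. Here too no WT library reached the Rag1-/- libraries, the log2 fold change was 1.29 (95% interval 0.44 to 2.14, edgeR adjusted p = 0.0795), and it was called by DESeq2 (1.24, adjusted p = 0.0101) and by edgeR on the unfiltered table (1.21, adjusted p = 0.00462).

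On the leukocyte scale both had lower values in Rag1-/- instead, without passing the test. The median log2 fold change of all genes on that scale was -2.14. Rgs2 had 254, 286 and 277 counts per 1000 in WT and 178 and 240 in Rag1-/- pools 2 and 7, and its log2 fold change there was -0.38 (95% interval -1.78 to 1.01, edgeR adjusted p = 0.619). Rgs1 had 180, 172 and 143 counts per 1000 in WT and 113 and 91.0 in Rag1-/- pools 2 and 7, and its log2 fold change was -0.70 (95% interval -2.11 to 0.71, edgeR adjusted p = 0.363). The genes are neighbours in a cluster of RGS genes on the minus strand of chromosome 1, whose other genes were chosen after the values were seen. Rgs13, between them, had at most 12 counts in any library, Rgs21 had 0 in all 5, and Rgs18 had 2.14, 3.17 and 3.83 CPM in WT and 8.70 and 4.68 CPM in Rag1-/- pools 2 and 7, without overlap (log2 fold change 1.14, edgeR adjusted p = 0.137).

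Cd44 (ENSMUSG00000005087, chr2:102811141-102901665, minus strand) had 987, 1295 and 1082 CPM in WT and 1665 and 1303 CPM in Rag1-/- pools 2 and 7. The groups touched, as WT pool 6 and Rag1-/- pool 7 were nearly equal. The log2 fold change of 0.43 (95% interval -0.14 to 1.01, edgeR adjusted p = 0.314) did not pass. Per 1000 leukocyte counts Cd44 was called lower, with 790.1, 438 and 371 counts in WT and 173 and 156 in Rag1-/- pools 2 and 7. The fitted log2 fold change was -1.69 (95% interval -3.16 to -0.23, edgeR adjusted p = 0.0365). The median of all genes on that scale was lower still, at -2.14, and 68.6% of them were called lower.

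**Figure D2:**
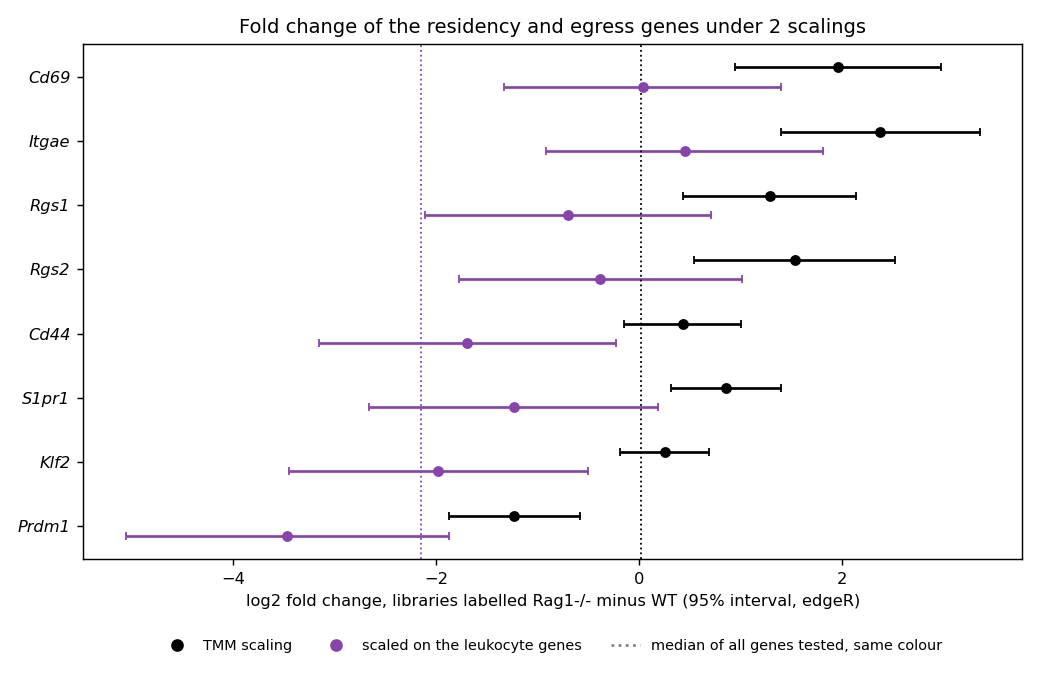
Log2 fold change (libraries labelled Rag1-/- minus WT) of the 8 tested genes with 95% intervals from edgeR under TMM scaling (black) and scaling on the leukocyte genes (purple), with dotted lines at the median of all genes. Itgae moved from 2.38 to 0.45 and S1pr1 from 0.86 to -1.23, while Prdm1 was below 0 under both (-1.23 and -3.46). The median of all genes moved from 0.02 to -2.14.

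On the leukocyte scale, 1 of the 8 genes (Itgae) was higher in both Rag1-/- libraries than in every WT library and 6 were lower in both, against 0.700% and 86.2% of all genes tested. The edgeR fit with this scaling called 0 of the 8 genes higher and 3 lower (Klf2, Prdm1 and Cd44), against 0.0842% and 68.6% of all genes, and 0 of them had an unadjusted p under 0.05 in the higher direction. Relative to the counts of Ptprc, which encodes the leukocyte antigen CD45, a ratio chosen after the values were seen, Itgae had 0.677, 0.526 and 0.609 in WT and 0.814 and 1.25 in Rag1-/- pools 2 and 7. Cd69 had 0.187, 0.164 and 0.154 in WT and 0.183 and 0.245 in Rag1-/- pools 2 and 7, which overlapped, as did Rgs2 and S1pr1 on this scale. Klf2 had 0.533, 0.124 and 0.169 in WT and 0.0619 and 0.101 in Rag1-/- pools 2 and 7. Cd44 had 8.11, 3.08 and 3.17 in WT and 1.42 and 2.09 in Rag1-/- pools 2 and 7. Klf2 and Cd44 were thus lower in both Rag1-/- libraries than in every WT library. The share of all genes without overlap relative to Ptprc was not computed. On the leukocyte scale it was 0.700% in the higher and 86.2% in the lower direction.

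**Figure D3:**
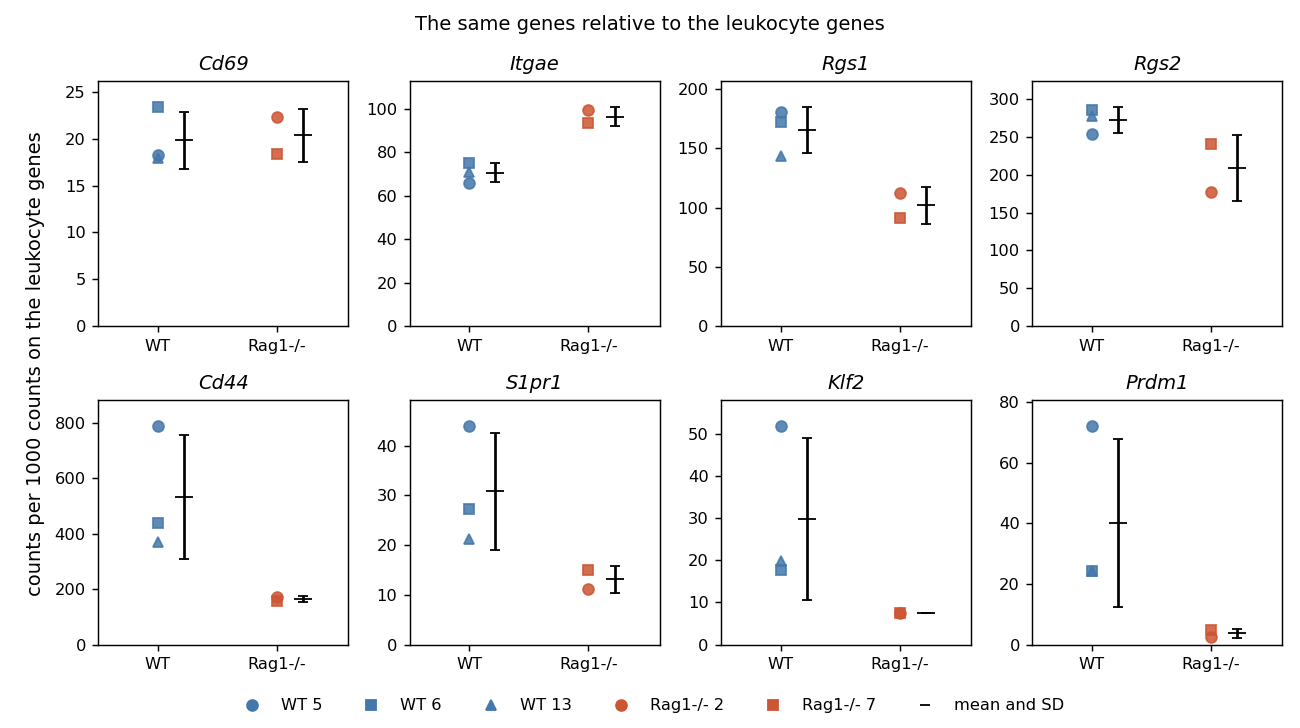
Counts of the 8 tested genes per 1000 counts on the leukocyte list in each library, on linear axes from 0, with bars for the mean and SD of each genotype. Itgae was higher in both Rag1-/- libraries (99.6 and 93.5) than in any WT library (66.0 to 75.0), Cd69 overlapped, and WT pool 5 was the highest library for Klf2, Prdm1, Cd44, S1pr1 and Rgs1.

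Levels of different genes were compared as mean CPM per kb of transcript length. In WT, Rgs2 (218) and Cd44 (200) were the highest and overlapped each other, followed by Rgs1 (99.9), Itgae (44.6), Klf2 (31.5), Cd69 (28.5), S1pr1 (21.6) and Prdm1 (14.7), and the libraries of Itgae and Klf2, of Klf2 and Cd69, and of Cd69 and S1pr1 overlapped. In Rag1-/- libraries the order was Rgs2 (614), Cd44 (264), Rgs1 (240), Itgae (227), Cd69 (109), S1pr1 (38.2), Klf2 (36.8) and Prdm1 (6.05). Cd69 thus lay beside Klf2 and S1pr1 in WT and above both in the Rag1-/- libraries, without overlap there. Cd44 overlapped Rgs1, Rgs1 overlapped Itgae and S1pr1 overlapped Klf2 in Rag1-/-.

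Likeness of profiles was measured as the root mean square distance of log2 CPM, centred on each gene's mean, over the 5 libraries, which share depth and cell makeup across genes. Among the 8 genes Cd69 and Itgae were the nearest pair (0.232) and Prdm1 and Itgae the farthest (1.98). Of all genes tested, the type 2 cytokine gene Il13 (0.0257) and the integrin gene Itgal (0.0700) were nearest to Itgae, and Rcsd1 (0.0412) and Dock2 (0.0696) to Cd69. Mief2 (0.0436) and Rbfa (0.0731) were nearest to S1pr1, Gm10643 (0.0233) and Phldb1 (0.0293) to Klf2, and Peli2 (0.0293) and Krt5 (0.0377) to Prdm1. Ero1l (0.0822) was near to Rgs1, Sytl3 (0.0630) and A630014C17Rik (0.0664) were nearest to Rgs2, and Dnajb6 (0.0459) and Slu7 (0.0469) to Cd44.

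Genes around the 9 were read from 6 lists, of which the first held 20 other genes linked to resident lymphocytes. Levels and fold changes of single genes from these lists are given on the CPM scale alone. The called genes Itgb7, S1pr4 and Klf3 stand on more than 1 list and enter the counts of each. With every gene counted once, 16 were called higher and 4 lower by edgeR. In the list of resident lymphocytes 4 were called higher and 1 lower, against 3.57% and 2.16% of all genes tested, with a median log2 fold change of 0.58. With leukocyte scaling edgeR called 0 of them higher and 9 lower, with a median of -1.64, where 0.0842% and 68.6% of all genes were called and the median of all was -2.14. Cd101 rose by 2.72 (SE 0.40, edgeR adjusted p = 0.0306), Cxcr6, a chemokine receptor of resident cells, by 2.28 (SE 0.50, 0.0458) and Runx3, a transcription factor of resident lymphocytes, by 1.80 (SE 0.30, 0.0309). Ahr, the aryl hydrocarbon receptor, was lower by edgeR (log2 fold change -1.18, adjusted p = 0.0306). Nr4a1 and Bhlhe40, the most abundant genes without a call, had log2 fold changes of 0.33 and 0.47.

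Genes linked to recirculating lymphocytes were called higher as well, 7 of 19 tested with 1 lower and a median of 0.82, so both lists held higher and lower calls. Among all genes tested 3.57% were called higher and 2.16% lower, with a median of 0.02. With leukocyte scaling 1 of the list was called higher and 7 lower, with a median of -1.29. Of all genes 0.0842% and 68.6% were called on that scale, with a median of -2.14. Ccr7, the receptor for entry into lymph vessels and nodes, had 12.7, 17.8 and 24.0 CPM in WT and 82.5 and 68.1 CPM in Rag1-/- pools 2 and 7 (log2 fold change 2.08, SE 0.28, edgeR adjusted p = 0.0306). Tcf7 and Cx3cr1 rose by 2.17 and 2.92 on the log2 scale, Klf3 was called lower (-1.22), and Itgb1 and Il6ra, the most abundant uncalled genes, had values of -0.55 and -0.27.

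Of 15 tested genes of the S1P pathway, 2 were called higher and 0 lower by edgeR, against 2 and 1 by DESeq2. The list holds genes that make, export, degrade or sense S1P, and others such as Gnai2. The shares of all genes were 3.57% and 2.16% by edgeR and 4.02% and 4.20% by DESeq2. Leukocyte scaling gave 0 higher and 13 lower, against 0.0842% and 68.6% of all genes. S1pr4, an S1P receptor of leukocytes, had 7.78, 27.1 and 23.4 CPM in WT and 68.9 and 97.6 CPM in Rag1-/- pools 2 and 7 (log2 fold change 2.14, SE 0.49, edgeR adjusted p = 0.0497). Gnai2, the inhibitory G-protein subunit through which S1PR1 signals, rose by 1.07 (SE 0.21, edgeR adjusted p = 0.0360). The most abundant uncalled genes, Sgpl1 (S1P lyase) and Plpp3, had log2 fold changes of -0.04 and -0.80. Among 15 other RGS genes 3 were called higher by edgeR, namely Rgs14 (2.22), Rgs10 (1.32) and Rgs19 (1.11), while the more abundant Rgs5 and Rgs12 had log2 fold changes of -0.78 and -0.06. Of these RGS genes 0 were called higher and 7 lower with leukocyte scaling, against 0.0842% and 68.6% of all genes.

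In the KLF family most values lay below 0, in 11 of the 15 other members tested, whereas 51.4% of all genes tested lay above 0. By edgeR the median log2 fold change was -0.33, and 2 were called lower and none higher, against 2.16% and 3.57% of all genes. DESeq2 called 3 lower and 1 higher, against 4.20% and 4.02%. Leukocyte scaling gave 0 higher and 14 lower, against 0.0842% and 68.6% of all genes. Klf5 and Klf3 fell by 1.46 and 1.22 on the log2 scale, and the most abundant members, Klf6 and Klf4, had values of -0.33 and -0.84. Of 21 genes around CD103 and CD44, 2 were called higher and 1 lower, against 3.57% and 2.16% of all genes. Besides ligands and partners, this list includes genes that make or cut hyaluronan and TGF-beta genes. With leukocyte scaling 0 were called higher and 15 lower (median -2.60), against 0.0842% and 68.6% of all genes (median -2.14). Tgfb1, whose product induces CD103, had 103, 156 and 138 CPM in WT and 539 and 453 CPM in Rag1-/- pools 2 and 7 (log2 fold change 1.94, SE 0.24, edgeR adjusted p = 0.0306). Hyal1, a hyaluronidase, fell by 1.65 (SE 0.29, edgeR adjusted p = 0.0309), and Cdh1, which encodes E-cadherin, the ligand of CD103, had 1400.2, 1319 and 918 CPM in WT and 459 and 562 CPM in Rag1-/- pools 2 and 7 (log2 fold change -1.21, edgeR adjusted p = 0.0530). Cdh1 is also on the keratinocyte marker list, where all 25 tested genes had a log2 fold change below 0. The part of keratinocyte RNA in the Cdh1 values was not tested. The second most abundant uncalled gene was Msn, with a log2 fold change of 0.89. With Rag1-/- pool 2 left out, 0 genes of the 6 lists were called, while 25 in the higher and 21 in the lower direction had an unadjusted p under 0.05.

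**Figure D4:**
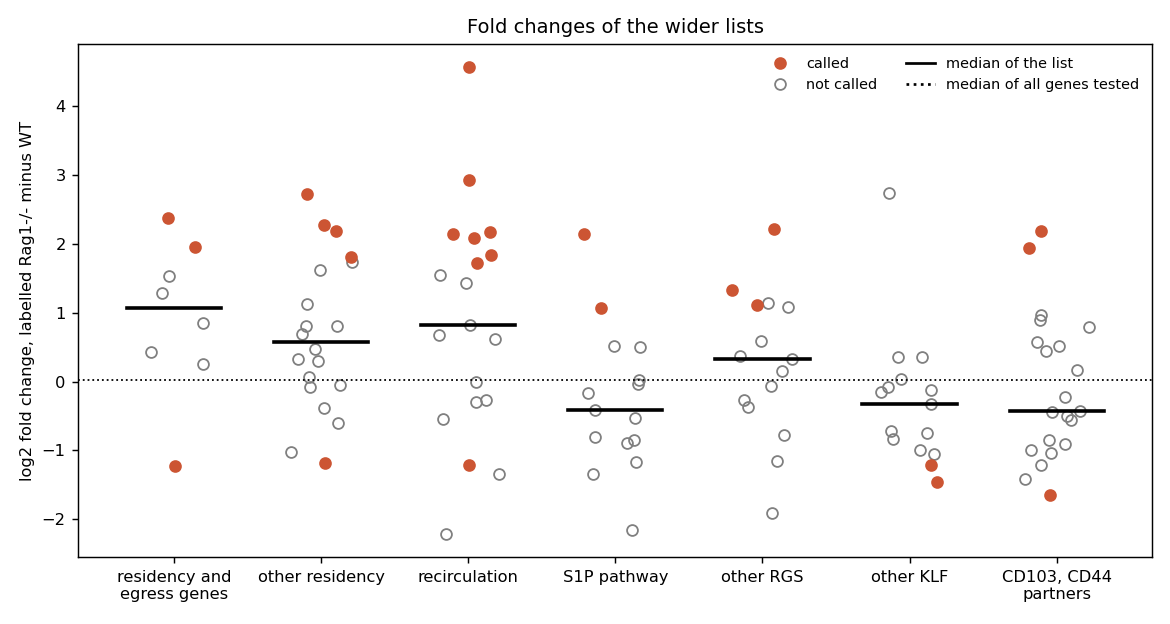
Log2 fold change (libraries labelled Rag1-/- minus WT) of the 8 tested residency and egress genes and of every tested gene in the 6 lists around them, with called genes filled, a line at each list's median and a dotted line at the median of all genes. The medians of the 6 lists run from -0.42 to 0.82, and the genes linked to resident (0.58) and to recirculating lymphocytes (0.82) both lie above 0 under the TMM scaling drawn here, and at -1.64 and -1.29 under leukocyte scaling.

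**Figure D5:**
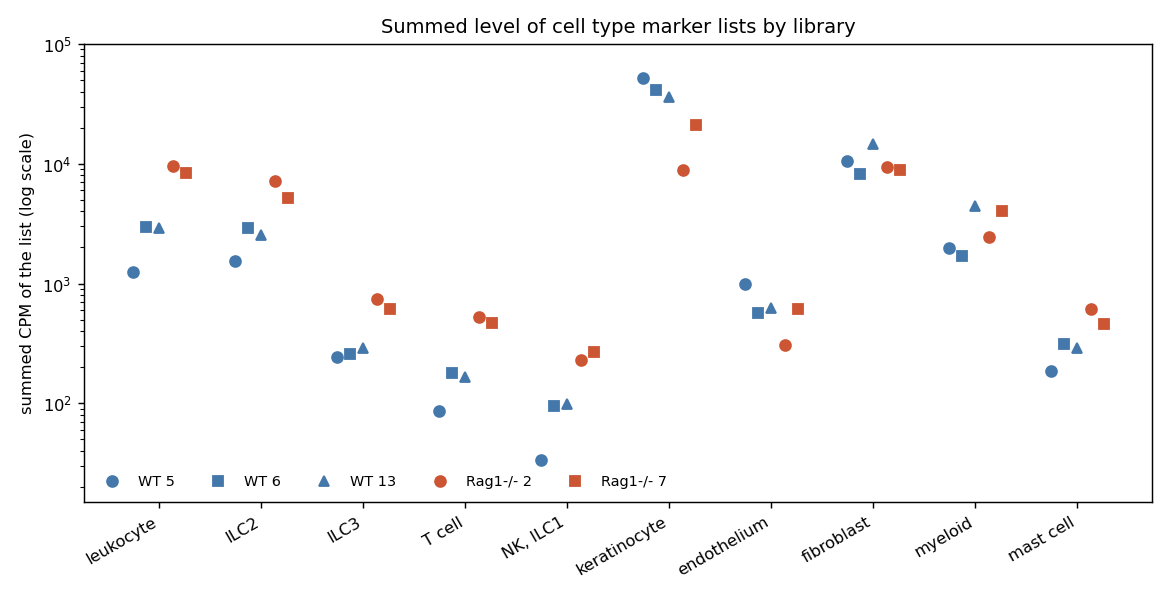
Summed CPM of the marker lists in each library on a log axis. The ILC2 list summed to 1551 to 2927 CPM in WT and to 7220 and 5224 CPM in Rag1-/- pools 2 and 7, while the keratinocyte list summed to 36383 to 51920 and to 8932 and 21095 CPM.

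Other marker lists that moved with these genes were those of ILC3s (242 to 290 CPM in WT, 743 and 610.1 CPM in Rag1-/- pools 2 and 7, led by Il1r1 and Ltb), T cells (85.8 to 179 CPM against 527 and 470.3, led by Trbc1 and Lat) and NK cells (33.4 to 98.1 CPM against 230 and 266, led by Klrk1 and Gzmb). Of the tested genes 8 of 13 ILC3, 5 of 16 T cell, 2 of 10 NK and 5 of 20 ILC2 markers were called higher, and 8 of 25 keratinocyte markers lower, against 3.57% and 2.16% of all genes. With leukocyte scaling 3 ILC3, 0 T cell, 1 NK and 0 ILC2 markers were called higher and 2, 5, 0 and 2 lower, against 0.0842% and 68.6% of all genes. Relative to the leukocyte sum, the T cell sum was 0.0572 to 0.0686 in WT and 0.0549 and 0.0564 in Rag1-/- pools 2 and 7, and the NK sum was 0.0267 to 0.0336 in WT and 0.0239 and 0.0319 in Rag1-/-. Mast cell markers summed to 188 to 311 CPM in WT and to 619 and 456 CPM in Rag1-/- libraries, led by Kit and Hdc, but 8 of the 10 genes had a log2 fold change below 0 (median -0.60) and edgeR called 0 of them. The endothelium (Pecam1, Plvap), fibroblast (Col1a1, Col1a2) and myeloid (Cd74, H2-Aa) lists had 0 calls by edgeR each. Log2 fold changes were below 0 in 15 of 16 endothelium (median -0.50), 7 of 14 fibroblast and 8 of 17 myeloid genes. Fibroblast markers summed to 8228 to 14566 CPM in WT and to 9314 and 8931 CPM in Rag1-/- pools 2 and 7. The part of the cells behind these marker lists in the values of the 9 genes was not tested.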

How the data were processed

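RNA of sorted dILC2s was sequenced in 3 WT and 2 Rag1-/- libraries, grouped by the titles of the samples. Per the labels, libraries were made with a TruSeq v2 kit from 200 ng RNA and read as single 50 base reads, and by the submitters' processing notes the tools were STAR 2.5, featureCounts 1.5.0-p1 and DESeq2 1.8.2. The authors aligned reads to GRCm38 with up to 2 mismatches and deposited counts per gene, without normalization. The gene models were release 103 in the labels and 84 in the methods. The kit does not keep strand, so overlapping genes could share reads, although no exon of the 9 genes overlapped another gene. The transcript length is a deposited column of the authors, and the kind of length is not given in the sources used here. A second table of normalized values was not used.

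Genes with low counts were removed with filterByExpr, leaving 19011 of 47729. The genotypes were compared in R 4.3.3 with edgeR 4.0.16 (TMM, quasi-likelihood test, Benjamini-Hochberg adjustment over all genes tested) with calls at an adjusted p under 0.05 and more than 1 log2 unit of change. Limits from counts cover counting error only. The fit was checked on simulated counts. Genes named were the 9 genes, the called and most abundant uncalled genes of 6 lists (at most 4 called per direction, 2 uncalled), the 2 nearest profiles of each tested gene, the 2 most abundant markers of each list, and Rag1, of which 2 genes are not reported here by name. The 9 genes and the lists were chosen with earlier results of these data known. Symbols with several identifiers were left out of the lists. The labels tie each library to a pool of mice, so p-values refer to the spread between pools, estimated in part from other genes. Alternatives were DESeq2 1.42.0, 3 other scalings (RLE, leukocyte genes, library size), keeping all genes, requiring 10 counts per library, dropping the fold threshold, each library left out, and thinning to 8050562 counts.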

Additional observations from a re-analysis of the deposited data

How the results depend on the processing

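Scaling on the leukocyte genes turned the log2 fold changes of S1pr1 (-1.23), Klf2 (-1.98), Rgs1 (-0.70), Rgs2 (-0.38) and Cd44 (-1.69), and by edgeR left 16 genes higher and 13042 lower, 0 and 3 of the residency and egress genes, and 1 and 63 of the genes in the lists around them, where TMM scaling gave 679 and 411, 2 and 1, and 16 and 4. It moved the median log2 fold change of all genes from 0.02 to -2.14. The share of calls in the higher direction was 62.3% with TMM and 0.123% with this scaling, 43.7% without the filter, 48.9% with DESeq2 and 33.8% without Rag1-/- pool 7.

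Without the filter 1157 genes were higher and 1488 lower, with 4 residency and egress genes higher and 12 listed genes lower. DESeq2 gave 1203, 1256, 4 and 10 for the same counts. A minimum of 10 counts in every library gave 641 lower genes and 8 listed genes lower, and thinning also gave 8. The cause of these shifts was not tested. With 1 library left out, edgeR called 0 to 814 genes higher and 0 to 1595 lower, 0 to 1 of the residency and egress genes in each direction, and 0 to 14 listed genes in each, and 0 whenever a WT pool or Rag1-/- pool 2 was missing. Of the values of single genes, 80 kept their direction and side of the threshold, 15 no longer passed, 4 passed in addition and 5 turned. No paired analysis was possible because the genotypes share no replicate numbers.

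Rag1-/- pool 2 had the smallest depth, and levels under 0.373 CPM could not be read in it.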
